A study of Mus musculus with 24 samples.

Results

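The interferon-response genes described here are 9 protein-coding genes, Ifit1, Ifit3, Isg15, Irf7, Oasl2, Usp18, Ifi27, Bst2 and Ifitm3, picked by gene symbol from the 54532 genes of a table of read counts of mouse striatum. RNA was sequenced in 24 libraries, 1 per animal, from the frozen striatum of a single hemisphere. All animals were of the C57BL/6 strain, and the labels gave no age. There were 4 genotypes of 6 animals, each with 3 males (replicates 1 to 3 here) and 3 females (replicates 4 to 6). WT animals were wild type. TyrobpKO animals lacked Tyrobp, the gene of an adaptor protein that microglial receptors such as TREM2 signal through. Q175 animals were heterozygous for Q175, a knock-in allele of the mouse Huntington's disease gene that carries an expanded CAG repeat and is used as a model of that disease. Q175_TyrobpKO animals carried the Q175 allele and lacked Tyrobp. Both genotypes without Tyrobp had animal numbers with the prefix T, all Q175 animals and WT replicate 3 had the prefix Q, and the other 5 WT animals had the prefix WT. What the prefix marks was not stated, and a difference that it marks cannot be told apart from loss of Tyrobp. Only WT replicate 3 shares the prefix of the Q175 animals, so in Q175 against WT the prefix is nearly confounded with the allele.

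Type I interferons are secreted by cells that sense viral or displaced nucleic acids, and bind a receptor of the subunits IFNAR1 and IFNAR2. The receptor's kinases activate transcription factors that bind an interferon-stimulated response element near the start of the target genes. In the brain, microglia, astrocytes, endothelial cells and neurons can all respond, and an interferon signature of microglia has been described in ageing and in neurodegeneration models. In whole striatum, a change in the number of cells of a type and a change in RNA per cell cannot be told apart.

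All 9 genes were expressed and passed the filter on low counts. Library totals ranged from 25.5 to 34.6 M counts (M, megacounts). The genes themselves drew few reads, from 11 for Usp18 in the library where it was lowest to 1108 for Ifi27 where it was highest. Levels are given as CPM, library counts scaled to a common total after TMM, a normalization that sets the bulk of genes equal between libraries. Tyrobp lay between 5.69 and 11.8 CPM in the libraries of both genotypes that keep it and between 0.214 and 0.448 CPM in those without it, so the labels of the deletion held in all 24. Summed markers of striatal projection neurons ranged from 3562 to 9476 CPM, and those of microglia from 309.1 to 449.9 CPM. Striatal neurons were thus present in every library, but the dissections were not free of other tissue. Summed choroid plexus markers ranged from 26.7 to 4254 CPM. In the interferon-response genes 3 libraries stood apart: TyrobpKO replicate 4, Q175_TyrobpKO replicate 6 and Q175_TyrobpKO replicate 4, all of females. They were picked by their values of these same genes, after the data were seen. The group means below include them, and the comparisons of the 9 genes that use them are given with and without them.

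Genes of this family are known to be switched on through a short promoter sequence, and the stretches that hold it are shown for the 4 members in which it lay before the transcription start. The search was for GAAA followed by any 2 bases and a further GAAA, on both strands, a core of the interferon-stimulated response element, in the 300 bases from 250 before to 50 after each start in RefSeq (build GRCm38.p6), and 7 of the 9 members were matched there. Each stretch below runs from 180 to 31 bases before the start, 5′ to 3′ on the gene's own strand, with the letters of the matches in capitals.
Ifit1 (chr19:34640709-34640858, plus strand): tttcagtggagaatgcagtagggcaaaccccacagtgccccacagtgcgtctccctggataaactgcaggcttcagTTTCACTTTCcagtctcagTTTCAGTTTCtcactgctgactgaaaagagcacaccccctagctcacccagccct
Ifit3 (chr19:34583349-34583498, plus strand): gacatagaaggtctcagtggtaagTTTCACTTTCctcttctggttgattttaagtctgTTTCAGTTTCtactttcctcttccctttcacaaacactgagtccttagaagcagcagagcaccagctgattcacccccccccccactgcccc
Isg15 (chr4:156200849-156200998, minus strand): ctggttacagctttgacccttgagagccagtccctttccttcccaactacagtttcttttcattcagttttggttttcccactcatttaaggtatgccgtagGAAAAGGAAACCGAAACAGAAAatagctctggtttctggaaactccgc
Bst2 (chr8:71537503-71537652, minus strand): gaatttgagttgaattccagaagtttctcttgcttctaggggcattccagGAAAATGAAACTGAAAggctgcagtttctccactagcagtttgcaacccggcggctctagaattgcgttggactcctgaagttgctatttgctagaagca

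Ifit1 and Ifit3 held a pair of separate matches each, on the strand opposite to the gene. Isg15 held 3 matches that overlap one another, and Bst2 held 2 that overlap. In Ifitm3 both matches lay just after the start, and Irf7 and Oasl2 held none in this window, which says only that these letters are not in it. In all, 5 of the 7 matched members held the motif, against 1079 of the 27025 genes with a promoter in that table (3.99%). Among other interferon targets, 18 of 35 matched genes held it. The longer motif, with CT right after the last GAAA, was found in 4 of the 7 and in 82 of all 27025 genes (0.303%). A match is a description of sequence and not evidence of binding in these animals.

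The genes lie on 7 chromosomes, given here with the coordinates of the deposited table, which are those of GRCm38. Ifit1 (chromosome 19, 34640871 to 34650009) and Ifit3 (chromosome 19, 34583531 to 34588731) are neighbours in a cluster of related genes. Irf7 (chromosome 7, 141262706 to 141266481) and Ifitm3 (chromosome 7, 141009586 to 141010770) are both on chromosome 7. Isg15 is on chromosome 4 (156199424 to 156200818), Oasl2 on chromosome 5 (114896936 to 114912234), Usp18 on chromosome 6 (121245906 to 121270917), Bst2 on chromosome 8 (71534255 to 71537456) and Ifi27 on chromosome 12 (103434211 to 103440239). Exons of Irf7 overlap those of Phrf1 on the opposite strand by 45 bases, and exons of Usp18 overlap those of the non-coding RNA gene Gm44148 by 124 bases. Whether the counting used strand is not given in the sources used here, so the values of Irf7 and Usp18 could include reads of these neighbours. Ifit3, Oasl2 and Ifitm3 have close paralogs (Ifit3b, Oasl1, Ifitm1 and Ifitm2) with which reads could be shared, and their values are uncertain to that extent.

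Per kilobase of exon, Ifi27 was the most abundant member, with a mean of 15.1 CPM per kb over the 24 libraries. Ifitm3 followed with 7.40 and Ifit3 with 6.32 CPM per kb. Bst2 had 2.92, Isg15 2.28 and Ifit1 1.59 CPM per kb. Oasl2 (0.790), Irf7 (0.574) and Usp18 (0.523 CPM per kb) were the least abundant.

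The first group of members are antiviral effectors of the cytoplasm. Ifit1 encodes a protein that binds viral RNA lacking the host's cap methylation. Its level in WT was 1.98, 2.67 and 3.01 CPM in the males and 4.86, 2.77 and 4.46 CPM in the females. In Q175 it was 2.98, 3.996 and 3.86 CPM in the males and 3.07, 5.86 and 3.56 CPM in the females. The ranges of WT and Q175 overlapped over most of their width. In TyrobpKO it was 3.65, 2.995 and 3.29 CPM in the males and 13.2, 2.79 and 2.71 CPM in the females. In Q175_TyrobpKO it was 2.17, 1.91 and 2.78 CPM in the males and 9.45, 3.85 and 9.52 CPM in the females. The 3 highest values of the series were thus 1 TyrobpKO female and 2 Q175_TyrobpKO females, while the other females without Tyrobp lay within the range of WT.

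Ifit3, a partner of Ifit1 in the same complex, had the same 3 libraries at the top. Its means were 9.25 ± 4.17 CPM in WT and 9.87 ± 2.74 CPM in Q175, and without Tyrobp 12.7 ± 8.90 CPM in TyrobpKO and 12.3 ± 7.90 CPM in Q175_TyrobpKO (SD over 6 animals). TyrobpKO replicate 4 had 30.7 CPM, Q175_TyrobpKO replicate 6 had 23.9 and Q175_TyrobpKO replicate 4 had 20.5 CPM. The next library was WT replicate 6, a female, with 16.3 CPM, and the lowest was Q175 replicate 1, a male, with 4.76 CPM.

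Oasl2, a relative of the 2′-5′ oligoadenylate synthetases that sense double-stranded RNA, was highest in the same 3 libraries. TyrobpKO replicate 4 had 19.96 CPM, Q175_TyrobpKO replicate 6 had 14.5 CPM and Q175_TyrobpKO replicate 4 had 13.0 CPM. The other 21 libraries lay between 1.91 and 6.50 CPM with a median of 2.97 CPM. The group means followed these libraries, with 4.03 ± 1.82 CPM in WT and 3.87 ± 1.09 CPM in Q175, and without Tyrobp 5.43 ± 7.13 CPM in TyrobpKO and 6.82 ± 5.50 CPM in Q175_TyrobpKO (SD over 6 animals). The median of TyrobpKO, 2.64 CPM, was below that of WT, 3.84 CPM, so that mean and median ordered these groups in opposite ways.

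Isg15 encodes a ubiquitin-like protein that is attached to other proteins, and Usp18 encodes the protease that removes it and also damps signalling at the interferon receptor. Isg15 was 1.86 ± 0.958 CPM in WT and 1.39 ± 0.565 CPM in Q175, and without Tyrobp 1.58 ± 1.07 CPM in TyrobpKO and 2.05 ± 1.37 CPM in Q175_TyrobpKO (SD over 6 animals). It was highest in Q175_TyrobpKO replicate 6 (4.29 CPM), followed by TyrobpKO replicate 4 (3.73 CPM) and WT replicate 6 (3.36 CPM). Usp18 was 1.28 ± 0.788 CPM in WT and 1.37 ± 0.553 CPM in Q175, and without Tyrobp 1.44 ± 1.25 CPM in TyrobpKO and 1.75 ± 1.35 CPM in Q175_TyrobpKO (SD over 6 animals). It reached 3.96 CPM in TyrobpKO replicate 4, 3.70 CPM in Q175_TyrobpKO replicate 6 and 3.03 CPM in Q175_TyrobpKO replicate 4. The 4 genotypes overlapped for both genes.

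Irf7, the transcription factor that amplifies type I interferon production, was 1.62 ± 0.493 CPM in WT and 2.05 ± 0.345 CPM in Q175, and without Tyrobp 1.85 ± 1.66 CPM in TyrobpKO and 3.14 ± 1.92 CPM in Q175_TyrobpKO (SD over 6 animals). In Q175_TyrobpKO the males had 1.71, 1.13 and 1.73 CPM and the females had 5.22, 3.48 and 5.56 CPM. In TyrobpKO the males had 1.05, 1.82 and 1.08 CPM and the females had 5.15, 0.698 and 1.32 CPM. The female TyrobpKO libraries thus held both the lowest Irf7 value of the series and one of its 3 highest.

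The last 3 members act at membranes. Ifi27 encodes a mitochondrial protein, Bst2 the surface protein tetherin that holds budding virus particles, and Ifitm3 a protein of endosomal membranes that hinders viral fusion. Ifi27 was 19.0 ± 3.94 CPM in WT and 25.6 ± 6.72 CPM in Q175, and without Tyrobp 21.6 ± 7.51 CPM in TyrobpKO and 22.4 ± 6.90 CPM in Q175_TyrobpKO (SD over 6 animals). Its highest library was Q175 replicate 3, a male, with 36.9 CPM, ahead of TyrobpKO replicate 4 with 35.9 CPM. Bst2 was 2.43 ± 0.413 CPM in WT and 2.66 ± 1.41 CPM in Q175, and without Tyrobp 2.53 ± 1.72 CPM in TyrobpKO and 2.94 ± 1.86 CPM in Q175_TyrobpKO (SD over 6 animals), and Q175 replicate 3, with 5.23 CPM, was again among its 3 highest. Ifitm3 was 4.58 ± 0.484 CPM in WT and 5.21 ± 0.996 CPM in Q175, and without Tyrobp 4.93 ± 2.26 CPM in TyrobpKO and 5.34 ± 1.86 CPM in Q175_TyrobpKO (SD over 6 animals). Q175 replicate 3 also held the highest summed level of choroid plexus markers, 4254 CPM, against a median of 50.9 CPM in the libraries other than the 3 that stand apart, and the part of that tissue in its Ifi27 and Bst2 was not tested.

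**Figure D1:**
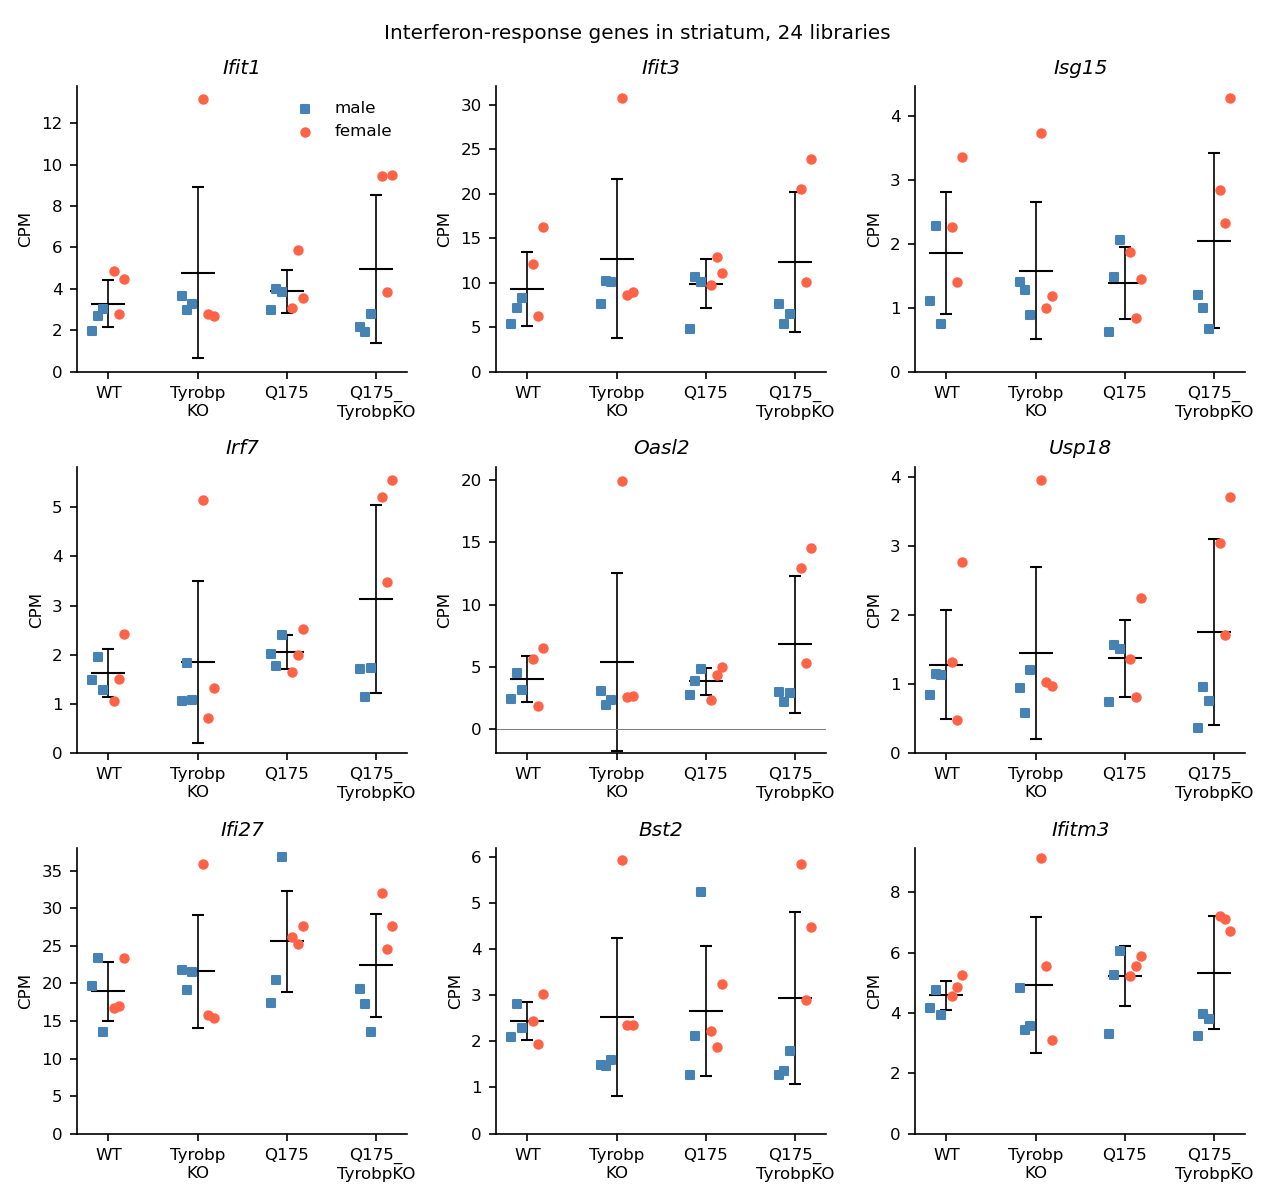
CPM (y axis, linear, a separate scale per gene) of each interferon-response gene in the 24 libraries by genotype (x axis). Blue squares are males, red circles are females, and the black dash and bars are the mean and SD of 6 animals. In each gene the genotypes overlap, and the single TyrobpKO female at the top (19.96 CPM for Oasl2) and 2 Q175_TyrobpKO females account for most of the high values.

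The Q175 allele was compared first, as the design asks how the striatum of Q175 animals differs with and without Tyrobp. Calls are from edgeR's quasi-likelihood test on all 24 libraries. A gene was called where its p, adjusted by the Benjamini-Hochberg method for the 19667 genes of the fit, was under 0.05. In Q175 against WT, 0 of the 9 interferon-response genes were called, against 9.63% of all genes tested. Also 0 of the 9 had an unadjusted p under 0.05, against 22.6% of all genes, and 0 were called by DESeq2. Log2 fold changes (Q175 over WT) were positive for 8 of the 9, with a median of 0.16 beside 0.01 over all genes. The largest was that of Ifi27, 0.43 ± 0.22 (SE), with an adjusted p of 0.259 from edgeR. Irf7 followed with 0.35 ± 0.38, Ifit1 with 0.30 ± 0.36, Ifitm3 with 0.19 ± 0.19, Bst2 with 0.16 ± 0.36, Usp18 with 0.14 ± 0.44, Ifit3 with 0.14 ± 0.33 and Oasl2 with 0.01 ± 0.51 (log2, ± SE). Isg15 had a negative value of -0.33 ± 0.38. With the animal-number prefix as a term, a contrast resting on WT replicate 3, Ifit1, Ifit3, Isg15, Oasl2, Usp18 and Bst2 changed sign. The 95% intervals ran from -1.12 (Isg15) to 1.13 (Irf7) on the log2 scale, that is from 0.460 to 2.19 times the WT level. Each gene's spread was estimated from all 24 libraries, so the 3 that stand apart entered it though neither group holds them. Without them the SE was 0.25 for Oasl2 and 0.20 for Ifit1. Of the 9, 0 were then called and 7 were positive, with a median of 0.14. Only 1, Ifi27, had an unadjusted p under 0.05 (0.026 from edgeR). In the fit of all 24 libraries, markers of striatal projection neurons were called lower in 9 of 10. Markers of choroid plexus had a median log2 fold change of 2.95 there, with 2 of 10 called higher (2.64 and 1 of 10 without the 3 libraries).

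In the animals without Tyrobp, Q175_TyrobpKO against TyrobpKO gave 0 of 9 calls, against 5.86% of all genes. The smallest adjusted p from edgeR was that of Irf7, 0.333, at a log2 fold change of 0.69 ± 0.37 (SE), and the other 8 lay between -0.13 and 0.29. Over both Tyrobp genotypes, Q175 carriers against non-carriers gave 0 of 9 calls, against 18.0% of all genes. Irf7 again had the smallest adjusted p from edgeR, 0.190, at 0.52 ± 0.26 (log2, ± SE). Irf7 was the 1 member whose call turned on a single library: without TyrobpKO replicate 4 its log2 fold change was 1.25 with an adjusted p of 0.0269 in Q175_TyrobpKO against TyrobpKO, and 0.80 with an adjusted p of 0.0135 in carriers against non-carriers. Both comparisons use the TyrobpKO and Q175_TyrobpKO libraries. Without all 3 libraries that stand apart, 0 of 9 were called in each, with medians of 0.02 in Q175_TyrobpKO against TyrobpKO and 0.08 in carriers against non-carriers, beside 0.18 and 0.15 with them. Irf7 itself then had 0.74 ± 0.30 and 0.54 ± 0.20 (log2, ± SE), with adjusted p of 0.253 and 0.0746 from edgeR. In carriers against non-carriers 9 of 10 choroid plexus markers were called higher over the 24 libraries, and 0 of 10 without the 3 libraries. All 10 were positive in both fits. In Q175_TyrobpKO against TyrobpKO 0 of 10 were called in either fit. There 10 of 10 were positive with the 3 libraries and 8 of 10 without them (median log2 fold change 0.29). The part of these markers in the values above was not tested.

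Loss of Tyrobp gave no call either. In TyrobpKO against WT 0 of 9 were called (0.117% of all genes), with log2 fold changes from -0.23 to 0.50 and a smallest adjusted p of 0.790 from edgeR, for Ifit1. Without the 3 libraries that stand apart 0 of 9 were called, 8 of 9 were negative (-0.62 to 0.07) and 6 had changed sign. In Q175_TyrobpKO against Q175 0 of 9 were called (0.158% of all genes). There the log2 fold changes were 0.52 ± 0.51 for Oasl2, 0.46 ± 0.37 for Irf7, 0.37 ± 0.38 for Isg15, 0.18 ± 0.33 for Ifit3, 0.16 ± 0.36 for Ifit1, 0.13 ± 0.44 for Usp18, -0.02 ± 0.19 for Ifitm3, -0.03 ± 0.36 for Bst2 and -0.22 ± 0.22 for Ifi27 (± SE). The direction of the first 6 rested on the libraries that stand apart: without them each was negative, from -0.02 for Irf7 to -0.48 for Usp18. Pooled over the Q175 allele, Tyrobp-deleted against Tyrobp-intact animals gave 0 of 9 calls (0.208% of all genes), with a smallest adjusted p of 0.659 from edgeR, for Ifit3, and a median log2 fold change of 0.11. It also gave 0 of 9 calls without the 3 libraries, with all 9 negative and a median of -0.25. The interaction of both genotypes gave 0 of 9 calls (0% of all genes), with and without them. DESeq2 also called 0 of 9 in each comparison, and 0 of the 9 had an unadjusted p under 0.05 in any of these comparisons over the 24 libraries. All 10 markers of microglia were lower in Q175_TyrobpKO than in Q175 by estimate, with 0 of 10 called and a median log2 fold change of -0.21. All 10 choroid plexus markers were lower there too (median -1.14), with 0 called and 0 with an unadjusted p under 0.05. Without the 3 libraries all 10 were again lower with 0 called, and 10 of 10 had an unadjusted p under 0.05. In the pooled comparison their median was -0.66, and -1.61 without the 3 libraries, with 0 called in both. The part of the microglia and choroid plexus markers in the values above was not tested.

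**Figure D2:**
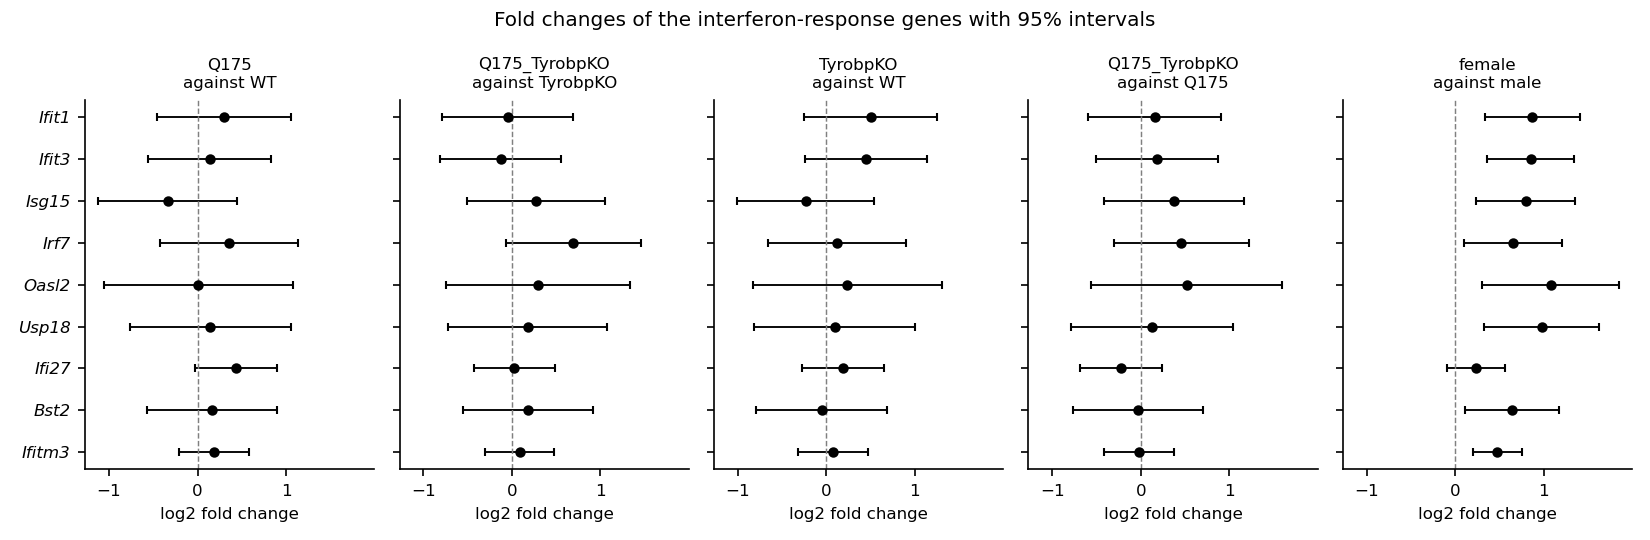
Log2 fold change (x axis) of each interferon-response gene (rows) in 5 comparisons (panels), with 95% intervals from edgeR's quasi-likelihood fit. In the 4 genotype comparisons every interval includes 0. In females against males 8 of the 9 intervals lie above 0, before adjustment for the number of genes tested.

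Between the sexes all 9 genes had estimates of 1 sign, and none passed the test. Females against males, with genotype held fixed, gave positive log2 fold changes for 9 of 9, with a median of 0.80, while the median over all genes was 0.00. Of the 9, 8 had an unadjusted p under 0.05, against 796 of 19667 genes (4.05%). After adjustment 0 of 9 were called, against 0.0814% of all genes, and 0 of 9 by DESeq2. Oasl2 had the largest value, 1.08 ± 0.37 (log2, ± SE), and Usp18 (0.98 ± 0.31), Ifit1 (0.87 ± 0.26), Ifit3 (0.85 ± 0.24) and Isg15 (0.80 ± 0.27) followed. Irf7 (0.65 ± 0.27), Bst2 (0.64 ± 0.26) and Ifitm3 (0.48 ± 0.14) were lower, and Ifi27 had 0.23 ± 0.16. The smallest adjusted p from edgeR was 0.741, shared by Ifit3 and Ifitm3. Males and females overlapped in every gene: Ifit3, for example, ranged from 4.76 to 10.6 CPM in males (median 7.59) and from 6.30 to 30.7 CPM in females (median 11.6). Because the 3 libraries that stand apart were all of females, the values without them were smaller, from 0.02 for Ifi27 to 0.48 for Usp18 with a median of 0.32, still positive in 9 of 9, and 2 of 9 had an unadjusted p under 0.05. Markers of other cell types also differed in sign between the sexes, with 0 called in each list. Microglia markers were higher in females by estimate in 10 of 10 (median log2 fold change 0.07), endothelial markers lower in 9 of 10 (-0.11), mural cell markers lower in 8 of 8 (-0.12) and choroid plexus markers lower in 10 of 10 (-0.52). Without the 3 libraries these were 8 of 10 (0.04), 9 of 10 (-0.07), 7 of 8 (-0.07) and 10 of 10 (-1.46), with 0 called. The part of these markers in the sex difference was not tested.

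The separation by sex was complete in 1 genotype. In Q175_TyrobpKO all 3 females lay above all 3 males for 9 of the 9 genes, against 4.92% of all genes tested. Replicates 4 and 6 of these females are among the libraries that stand apart on these same genes. The 1 female left without them, replicate 5, also lay above the 3 males for 9 of 9 genes, as did 24.6% of all genes. The lowest female and the highest male were 3.85 and 2.78 CPM for Ifit1, 3.48 and 1.73 CPM for Irf7, 5.34 and 2.97 CPM for Oasl2, and 6.72 and 3.96 CPM for Ifitm3. The same count was 0 of 9 in WT (4.35% of all genes), 1 of 9 in TyrobpKO (9.06%) and 0 of 9 in Q175 (5.45%). In a fit that let sex differ in each genotype, chosen after these values were seen, the median log2 fold change of females over males was 1.64 in Q175_TyrobpKO, 0.86 in TyrobpKO, 0.47 in WT and 0.08 in Q175. In Q175 3 of the 9 were negative, Bst2 (-0.24), Irf7 (-0.0079) and Isg15 (-0.0027). Without the 3 libraries the median was 0.98 in Q175_TyrobpKO, where the lone female is assumed to vary like the other groups, and -0.08 in TyrobpKO with 4 of 9 positive. Over all 24 libraries, all 9 had an unadjusted p under 0.05 in Q175_TyrobpKO and 0 of 9 were called (0.0407% of all genes), the smallest adjusted p from edgeR being 0.599, for Bst2. There 4 of 9 had an unadjusted p under 0.05 without the 3 libraries, and 0 of 9 were called. Whether the sex difference varied with genotype was tested for each gene in that fit, and 0 of 9 were called (0% of all genes). Bst2 had the smallest p of that test, 0.0104 before and 0.778 after adjustment in edgeR, and the other 8 had unadjusted p values of 0.0696 or more. A difference between genotypes in the effect of sex was therefore not established.

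The 9 genes varied together from animal to animal. To order the libraries, each gene's log2 CPM was standardised over the 24 libraries and the 9 z-scores were averaged. The mean z-score was 2.15 in TyrobpKO replicate 4, 1.69 in Q175_TyrobpKO replicate 6 and 1.65 in Q175_TyrobpKO replicate 4. The next were WT replicate 6 with 0.75 (female), Q175 replicate 3 with 0.71 (male) and Q175_TyrobpKO replicate 5 with 0.61 (female). The lowest was Q175_TyrobpKO replicate 2, a male, with -0.93. Of the 12 libraries with the highest mean z-score 9 were of females, and 5 of the 6 lowest were of males. Q175_TyrobpKO thus held both ends of the order, with 2 of its females among the top 3 and a male at the bottom.

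**Figure D3:**
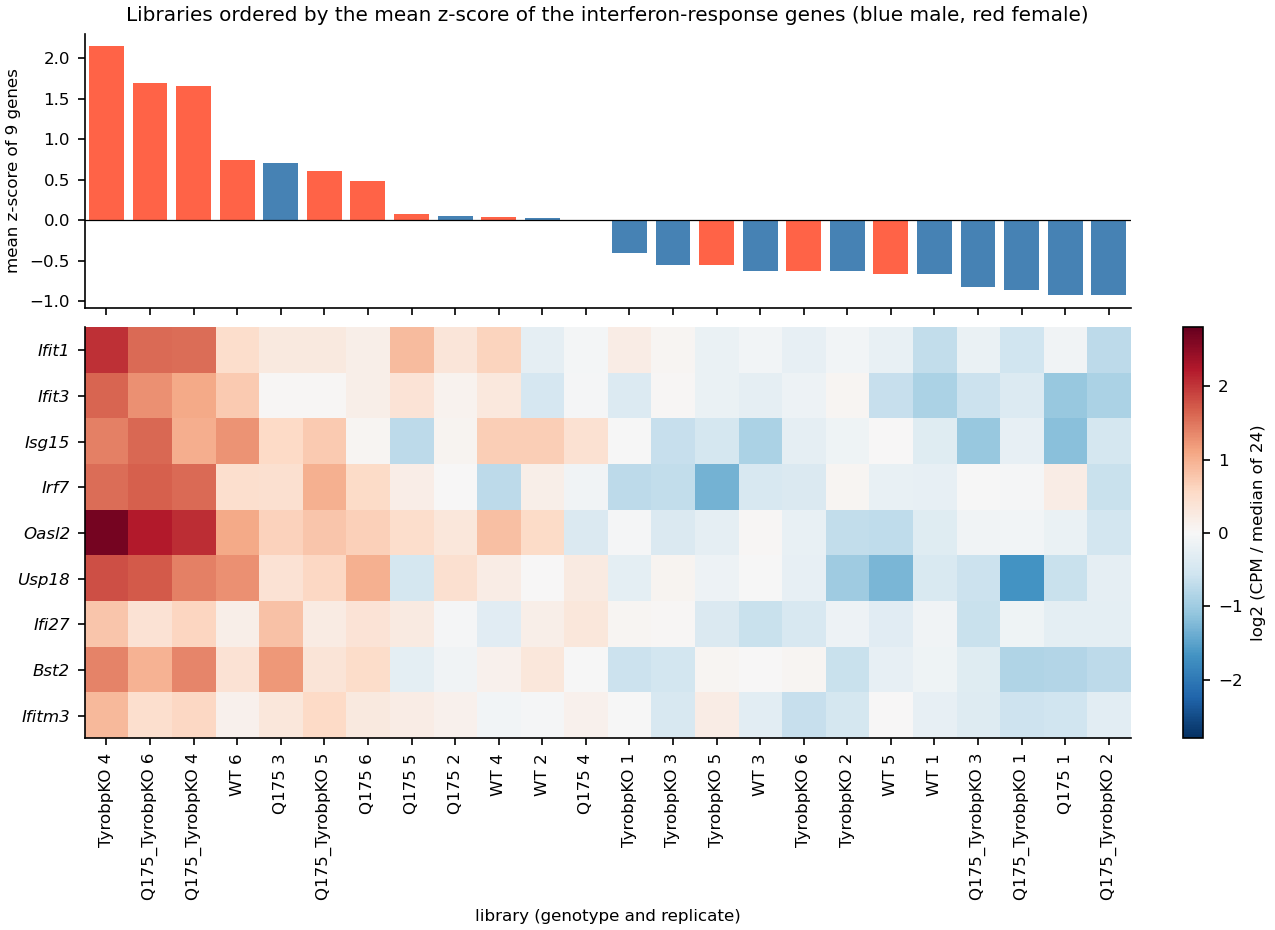
Upper panel, mean z-score of the 9 interferon-response genes (y axis) in each library, ordered from high to low (x axis, genotype and replicate), with males in blue and females in red. Lower panel, log2 of each gene's CPM over its median of 24 libraries (colour). TyrobpKO 4, Q175_TyrobpKO 6 and Q175_TyrobpKO 4 are high in all 9 genes, with mean z-scores from 1.65 to 2.15, and the fourth library has 0.75.

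The size of the excess differed between genes. In TyrobpKO replicate 4, Oasl2 was 6.71 times the median of the 21 other libraries, Ifit1 4.37 times and Usp18 3.85 times, while Ifitm3 was 1.92 times and Ifi27 1.83 times that median. In Q175_TyrobpKO replicate 6 the ratios ran from 1.41 (Ifi27) to 4.89 (Oasl2), and in Q175_TyrobpKO replicate 4 from 1.52 (Ifitm3) to 4.37 (Oasl2). These libraries were singled out by the same values, so the ratios are a description without a test.

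Across the 24 libraries the Pearson correlation between pairs of members, on log2 CPM after removal of genotype and sex means, was positive for 36 of 36 pairs. It ran from 0.58 (Irf7 and Ifitm3) to 0.91 (Ifit1 and Oasl2), with a median of 0.71 (Spearman's rho 0.51 to 0.88). Without the 3 libraries that stand apart, the 36 correlations were still positive and ranged from 0.17 to 0.76, with a median of 0.48. The points share library depth and tissue composition, and the correlations are descriptive. The SD of the residuals between animals was 0.85 for Oasl2, 0.83 for Usp18 and 0.36 for Ifitm3 (log2), beside a median of 0.22 over all genes. Against genes of similar mean level, Ifit3 was at the 98.4th percentile for this SD and Oasl2 at the 97.7th, while Ifitm3 was at the 83.4th.

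The genes whose residuals were most like the mean z-score of the 9 over the 24 libraries were Mx1 (r = 0.89), Lgals3bp (0.87), Gbp6 (0.86), Ifit3b (0.86), Rnf213 (0.86), Rtp4 (0.84), C4b (0.83) and Ddx60 (0.82). Mx1 encodes an antiviral GTPase, Gbp6 a guanylate-binding GTPase, Ddx60 a helicase of RNA sensing and C4b a complement component. Without the 3 libraries their r fell to between 0.57 (Ddx60) and 0.80 (C4b), and 1 of the 8 remained among the 8 most alike. Among the 43 other interferon targets tested, 27 (62.8%) had r above 0.5, against 2.93% of all other genes. The share was 1 of 9 for receptor and JAK-STAT genes and 0 of 8 for regulatory factors and feedback genes. It was 7 of 10 for choroid plexus markers, 4 of 5 for ependyma markers, 1 of 10 for microglia markers and 0 of 10 for endothelial markers. All these shares are over the 24 libraries, the 3 that stand apart included, and were not computed without them.

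The levels of the cell-type markers in the 3 libraries that stand apart were as follows. Summed choroid plexus markers were 610 CPM in Q175_TyrobpKO replicate 6 and 580 CPM in Q175_TyrobpKO replicate 4, ranks 2 and 3 of 24, but 57.3 CPM in TyrobpKO replicate 4, rank 12. Summed microglia markers were 384 CPM in TyrobpKO replicate 4, 401.5 CPM in Q175_TyrobpKO replicate 6 and 347 CPM in Q175_TyrobpKO replicate 4, within the 309.1 to 449.9 CPM of the other libraries. Summed endothelial markers were 348, 305 and 279 CPM in the same order, the last being the lowest of 24. Ependyma markers were 32.2, 23.2 and 28.5 CPM, ranks 2, 10 and 4. Blood and leukocyte markers were 2.69, 4.54 and 6.26 CPM, within the 1.43 to 7.88 CPM of the others. TyrobpKO replicate 4, the library with the highest mean z-score, thus had choroid plexus, microglia, endothelial and blood markers within the range of the 21 other libraries, and the second highest ependyma markers of 24. The part of ependyma in its values was not tested.

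**Figure D4:**
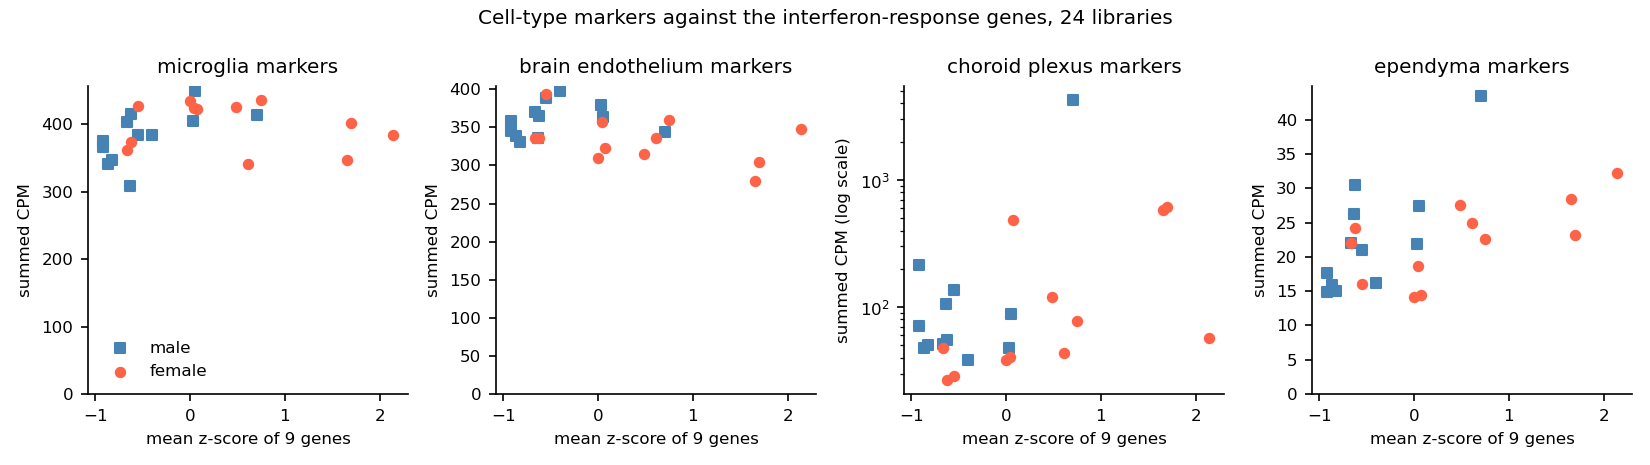
Summed CPM of marker genes (y axis) of microglia, brain endothelium, choroid plexus (log scale) and ependyma against the mean z-score of the 9 interferon-response genes (x axis) in 24 libraries, with males as blue squares and females as red circles. The library at the far right, TyrobpKO replicate 4, has 384 CPM of microglia markers and 57.3 CPM of choroid plexus markers, both inside the range of the other libraries.

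The rest of the pathway was examined from lists of ligands, sensors, receptors and targets. None of the 12 interferon ligand genes listed passed the filter on low counts. Together they drew 41 reads over the 24 libraries, and 8 of them, Ifnb1 and Ifng included, were at 0 in every library. Of a gene at 0 in a group of 6 libraries, up to 0.0182 CPM would be allowed by 3 counts over the group with the fewest counts, for counting error only.

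Of 12 nucleic acid sensors and adaptors, 1 was called in Q175 against WT, where 9.63% of all genes were called, and 2 in carriers against non-carriers (18.0% of all genes). Tlr7, an endosomal receptor of single-stranded RNA, rose by a log2 fold change of 0.45 ± 0.13 (SE, adjusted p = 0.0297 from edgeR), but the call was lost in 13 of 35 alternative fits. Ddx58, the cytoplasmic RNA sensor RIG-I, had 0.42 ± 0.16 in that comparison (adjusted p = 0.0946 from edgeR) and was called in carriers against non-carriers at 0.32 ± 0.11 (adjusted p = 0.0478), a call lost in 21 of 34 alternative fits. Myd88, the adaptor of most Toll-like receptors, was called there too, at 0.35 ± 0.10 (adjusted p = 0.0129 from edgeR), and lost its call in males alone, in females alone and with the animal-number prefix as a term. In Q175_TyrobpKO against Q175, 0 of the 12 were called, and Tlr7 (-0.34) and Ticam1 (0.28) had the smallest p values.

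Among 9 receptor and JAK-STAT genes, Ifngr2, a subunit of the receptor for interferon gamma, was the 1 gene called in Q175 against WT, and it was higher in Q175. It was 15.4 to 20.7 CPM in WT and 24.7 to 31.2 CPM in Q175, with no overlap, a log2 fold change of 0.53 ± 0.09 (SE, adjusted p = 0.000149 from edgeR). TyrobpKO libraries had 17.0 to 23.9 CPM and Q175_TyrobpKO libraries 23.5 to 30.4 CPM, a log2 fold change of 0.33 ± 0.09 (adjusted p = 0.0195 from edgeR). The first call was lost in 1 of 35 alternative fits, that with the animal-number prefix as a term (adjusted p = 0.171 from edgeR). The second call was lost in 5 of 35 alternative fits, at log2 fold changes that stayed positive. These were males alone (0.26, adjusted p = 0.334), females alone (0.41, 0.141), without Q175_TyrobpKO replicate 1 (0.29, 0.0528), without Q175_TyrobpKO replicate 4 (0.31, 0.0523) and without the 3 libraries that stand apart (0.28, 0.198), with p from edgeR. Ifnar1 had a log2 fold change of 0.12 for Q175 over WT and of -0.12 for Q175_TyrobpKO over Q175, and Jak2 had -0.13 and -0.16, none of them called.

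Of the 8 regulatory and feedback genes tested, 0 were called in either comparison. In Q175 against WT the smallest p values were those of Irf3 (0.20) and Adar (-0.12), an RNA-editing enzyme, and in Q175_TyrobpKO against Q175 those of Irf5 (-0.43) and Irf8 (-0.32), both factors of the myeloid lineage (log2 fold changes). The 3 genes that carry Isg15 onto its targets gave 0 calls in both: Uba7 had -0.25 and 0.26, Ube2l6 0.36 and 0.03, and Herc6 0.01 and 0.10. Of the 43 other interferon targets tested, 37 were positive in Q175 against WT with a median of 0.19, and 1 was called higher, against 9.63% of all genes called. The number called was 3 of 43 without the 3 libraries that stand apart. That gene was Ifi204, a DNA-binding member of the p200 family, at 1.75 ± 0.52 (SE, adjusted p = 0.0313 from edgeR) but at only 0.0381 to 0.415 CPM where detected in WT (0 reads in WT replicate 3) and 0.155 to 0.958 CPM in Q175. The call was lost in 12 of 32 alternative fits. Over the 32 fits the log2 fold change of Ifi204 stayed positive but ran from 1.40 to 6.45. In carriers against non-carriers Ifi204 (1.09) and Parp12 (0.24) were called, both higher, so 2 of 43 against 18.0% of all genes. The calls were lost in 13 of 32 and 15 of 34 alternative fits, among them that without the 3 libraries that stand apart, where the log2 fold changes were 1.09 and 0.19. In Q175_TyrobpKO against Q175, 0 of the 43 were called and the median was 0.00 (-0.19 without the 3 libraries), with Ifitm1 at 0.74 and Ifit2 at 0.21. In females against males 38 of the 43 were positive with a median of 0.28, 19 had an unadjusted p under 0.05 and 0 were called. With the 3 libraries left out these were 33 of 43, 0.13, 5 and 0.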

How the data were processed

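RNA of 24 mouse striata was analysed from the table of raw read counts per gene that the authors deposited, whole numbers without normalization. The submitters' processing notes name STAR, featureCounts and DESeq2 without versions, and the build GRCh38, which is a human build. The gene identifiers are of mouse, and 54409 of 54532 were found in GENCODE M21 (GRCm38), of which 98.3% had the same start and end, all 9 members included. Coordinates count from 1.

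The main test was edgeR 4.0.16 (R 4.3.3) quasi-likelihood on the deposited counts, with TMM, filterByExpr, a robust fit, genotype means and sex as terms, all 24 libraries in 1 fit, and Benjamini-Hochberg adjustment over 19667 genes. CPM are per TMM-scaled library, and log2 CPM used a prior count of 1. Totals were 25.5 to 34.6 M counts. Within genotypes, 60 library pairs had mean chi-square values per gene of 6.89 to 42.6, so none was a duplicate. Nothing but the animal numbers says that replicates are separate animals. The fits were tested on simulated data. Alternatives were DESeq2 1.42.0, limma-voom 3.58.1, other filters, a fit without robust estimation or sex, subsets of libraries, the animal-number prefix as a term, and leaving out each library. The fits without the 3 libraries that stand apart and the fit of sex within genotype were added after seeing the data.

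The 9 genes, the lists and the tests were chosen with earlier results of these data known. Besides the 9, the text names the 2 genes of smallest p per list in Q175 against WT or Q175_TyrobpKO against Q175, genes called, and the 8 genes most like the 9. Genes called in carriers against non-carriers were named after their values were seen. Promoters are from RefSeq (Python 3.11.15, pandas 2.3.3). A further gene of the receptor list is not reported here.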

Additional observations from a re-analysis of the deposited data

Results flagged for a closer look

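Within a genotype of 6 libraries, a highest or lowest value was marked where its gap to the nearest library, divided by the range of the group, exceeded Dixon's 95% critical value for 6 samples. Of the 36 groups of the interferon-response genes, 11 were marked. Chance marks about 1 in 20 groups where these are independent. The 9 genes vary together in the same animals, so this count cannot be set against that rate. TyrobpKO replicate 4 was marked as the highest of its genotype for 8 of the 9 genes: Ifit1 (13.2 CPM, next 3.65), Ifit3 (30.7, next 10.2), Isg15 (3.73, next 1.40), Irf7 (5.15, next 1.82), Oasl2 (19.96, next 3.06), Usp18 (3.96, next 1.199), Ifi27 (35.9, next 21.8) and Bst2 (5.93, next 2.36 CPM). The same library was the highest TyrobpKO value of Ddx58 (9.70 CPM), Uba7 (4.55 CPM) and Ifi204 (0.970 CPM). The other member values marked were Ifit1 in Q175 replicate 5 (5.86 CPM, high), Usp18 in WT replicate 6 (2.76 CPM, high) and Ifitm3 in Q175 replicate 1 (3.29 CPM, low).

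Over 29 genes and 116 groups 17 values were marked. The rest were Tlr7 in Q175_TyrobpKO replicate 6 (3.81 CPM, high), Ifnar1 in Q175_TyrobpKO replicate 2 (55.2 CPM, high) and Htt, the gene of the Q175 allele, in WT replicate 6 (208.6 CPM, low).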

How the results depend on the processing

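No paired analysis was possible because the replicate numbers only name the libraries. Over the alternatives, 0 of the 9 genes were called in each comparison, except Irf7 without TyrobpKO replicate 4, so that the number of members called ranged from 0 to 1 over the fits leaving out 1 library in Q175_TyrobpKO against TyrobpKO and in carriers against non-carriers. Females against males kept its direction for all 9 genes in all alternatives with 1 sex term, but not in the fit of sex within genotype, where Bst2, Irf7 and Isg15 were negative in Q175. Log2 fold changes that turned were not past the threshold before or after, and the cause was not tested.

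In Q175 against WT, Oasl2 was -0.024 with limma-voom, -0.000165 with no filter, -0.060 without the sex term, -0.048 with only the 12 libraries compared and -0.037 without the 3 libraries that stand apart. In females alone Ifit3 was -0.044, Oasl2 -0.26, Usp18 -0.048 and Bst2 -0.0082, and in males alone Isg15 was 0.013. With the animal-number prefix as a term, where the contrast rests on WT replicate 3, Ifit1 was -0.066, Ifit3 -0.20, Isg15 0.55, Oasl2 -0.19, Usp18 -0.21, Bst2 -0.066 and Uba7 0.30, and the call of Ifngr2 was lost at a nearly equal log2 fold change (0.50, adjusted p = 0.171 from edgeR). Leaving out 1 library gave Oasl2 -0.22 to 0.21, Usp18 -0.064 to 0.37 and Bst2 -0.32 to 0.30.

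In Q175_TyrobpKO against Q175, Bst2 and Ifitm3 were 0.15 and 0.013 with limma-voom and 0.13 and 0.031 without the sex term. In males alone Ifit1 was -0.66, Ifit3 -0.39, Isg15 -0.54, Irf7 -0.43, Oasl2 -0.51, Usp18 -0.88, Uba7 -0.014 and Herc6 -0.021, and in females alone Ifi27 was 0.085, Bst2 0.83 and Ifitm3 0.33. Without the 3 libraries Ifit1 was -0.48, Ifit3 -0.32, Isg15 -0.066, Irf7 -0.017, Oasl2 -0.17 and Usp18 -0.48. Leaving out 1 library gave Bst2 -0.25 to 0.41, Ifitm3 -0.089 to 0.089, Ifit1 -0.026 to 0.29, Ifit3 -0.0028 to 0.31, Usp18 -0.11 to 0.33 and Herc6 -0.031 to 0.22.

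Counts over all genes moved by over 1.5 times as follows. Q175 against WT had 1893 calls, 759 in males alone, 187 in females alone and 293 with the prefix term. Q175_TyrobpKO against TyrobpKO had 1153, and 104, 290 and 372 in males, in females and without the 3 libraries. Carriers against non-carriers had 3544, and 1242, 1195 and 1603 in males, in females and with the prefix term. TyrobpKO against WT had 23, and 65 and 8 in males and females. Q175_TyrobpKO against Q175 had 31, 52 by DESeq2 and 11 in each sex. Tyrobp-deleted against intact had 41, 84 by DESeq2 and 19 in females. The interaction had 0, 2 by DESeq2 and 1 by limma-voom. The longer promoter motif gave 57.1% of members with a promoter and 0.303% of all genes.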
